A study of Mus musculus with 18 samples.

Results

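The response of mouse epididymal fat to a high-fat diet was set against the response of the liver, gene by gene. For each gene the change in adipose tissue (high-fat diet, HFD, minus normal diet, ND) and the change in liver (HFD minus ND) were estimated on the log2(FPKM + 1) scale, and the liver change was subtracted from the adipose change. FPKM is a fragment count scaled by transcript length and library size. A gene entered when it reached 1 FPKM in at least 3 adipose and at least 3 liver libraries, which 9957 of the 23474 listed genes did. Those libraries could be of any diet, so a gene could enter only through the diet where it was high. Large changes of genes at low levels are therefore favoured by the filter. Adding 1 to FPKM understates the changes of low genes.

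The mice were male C57BL/6J, 17 weeks old after 12 weeks on their diets and housed singly. The groups were adipose HFD, adipose ND, liver HFD and liver ND, with 3 RNA-seq libraries each, so that 12 of the 18 libraries of the study carry these comparisons. The other libraries, 3 from each tissue, came from mice whose high-fat diet held 0.25% extract of green tea (GT), and served here to estimate the spread between libraries. Since no label ties a library to a mouse of its own, the p-values describe the spread among these samples only, and some of that spread may be technical.

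Tissue markers matched the tissue labels in all libraries but with admixtures. The sum of 15 hepatocyte markers was 3.89 to 13.7 FPKM in adipose tissue and 59342 to 104009 FPKM in liver. Adipose ND 1 stood apart: 24 testis markers summed to 120186 FPKM and 9 epididymis markers to 20572 FPKM there, while 10 fat-cell markers summed to 4455 FPKM, against 32429 and 21690 FPKM in ND 2 and ND 3. The values below therefore come from 17 libraries without adipose ND 1, with values from all 18 libraries beside many of them. Testis markers also summed to 2728 FPKM in adipose HFD 1 and 4374 FPKM in ND 3, and at most 253 FPKM elsewhere. Epididymis markers summed to 1287 FPKM in adipose HFD 2, and to at most 14.8 FPKM in the adipose libraries other than HFD 2 and ND 1. In liver HFD 2 the markers of skeletal muscle came to 161 FPKM, in GT 3 to 63.7 FPKM and in HFD 3 to 33.4 FPKM. Liver HFD 3 listed the albumin gene Alb at 0, against 22791 and 27895 FPKM in HFD 1 and HFD 2, so a 0 for an abundant gene there is a listed value, not a measured absence. Read depth is not analysed here. In bulk tissue, fewer cells of a type and less RNA per cell cannot be told apart.

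White fat stores triglyceride and releases hormones and complement factors, and in obesity macrophages gather around its dying, overfilled cells and take up their lipid in lysosomes. The liver exports lipid as lipoproteins, makes fatty acids and cholesterol under the SREBP transcription factors, and when lipid accumulates it comes to express droplet proteins otherwise typical of fat cells. Antioxidant and conjugating enzymes, many of them controlled by the factor NRF2, are abundant in hepatocytes and are also made by fat cells.

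The high-fat diet changed many genes in each tissue, and for about as many the 2 changes differed. In adipose tissue 2642 genes passed a limma test at a Benjamini-Hochberg adjusted p under 0.05 (26.5% of the genes tested), with 1630 higher (16.4%) and 1012 lower (10.2%) on HFD. In liver 2194 genes passed (22.0%), with 1333 higher (13.4%) and 861 lower (8.65%). The difference between the changes passed for 2145 genes (21.5%), 1180 with the more positive change in adipose tissue (11.9%) and 965 with the more positive change in liver (9.69%). With adipose ND 1 kept, the difference passed for 857 of 10042 genes (8.53%), and 855 of these were among the 2145, all with the same sign. The same setting left 1609 genes called in adipose tissue (16.0%) and 147 in liver (1.46%), although the liver libraries were the same in both. The median standard error of the difference was 0.27 log2 units without ND 1 and 0.45 with it. The median over all genes tested was 0.02 for the adipose change, -0.02 for the liver change and 0.05 for the difference. Counts over gene lists below are to be read beside the shares given here.

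Genes were then sorted by which changes passed. A gene was taken as changed in adipose tissue only when its adipose change and the difference passed and its liver change did not; 1114 genes did so (11.2%), 751 upward (7.54%) and 363 downward (3.65%). The liver-only group, defined the same way, held 570 genes (5.72%), 377 upward (3.79%) and 193 downward (1.94%). Both changes passed with the same sign in 425 genes (4.27%), 307 upward (3.08%) and 118 downward (1.19%). Both passed with opposite signs, and the difference passed too, in 227 genes (2.28%): 103 rose in adipose tissue and fell in liver (1.03%), and 124 fell in adipose tissue and rose in liver (1.25%). For 876 more genes (8.8%) the adipose change passed but neither the liver change nor the difference did, for 972 (9.76%) the liver change alone did so, and these were not assigned to a tissue. With adipose ND 1 kept, the adipose-only group held 644 genes (6.41%), the liver-only group 61 (0.607%), the same-direction group 28 (0.279%) and the opposite-direction group 11 (0.11%). A change that misses the test is not shown to be absent, but in 1007 of the 1114 adipose-only genes the 95% interval of the liver change lay within 1 log2 unit of 0, as did that of the adipose change in 495 of the 570 liver-only genes. Of the 385 genes that changed in the same direction without a difference that passed, 285 had a 95% interval of the difference within 1 log2 unit of 0.

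**Figure D1:**
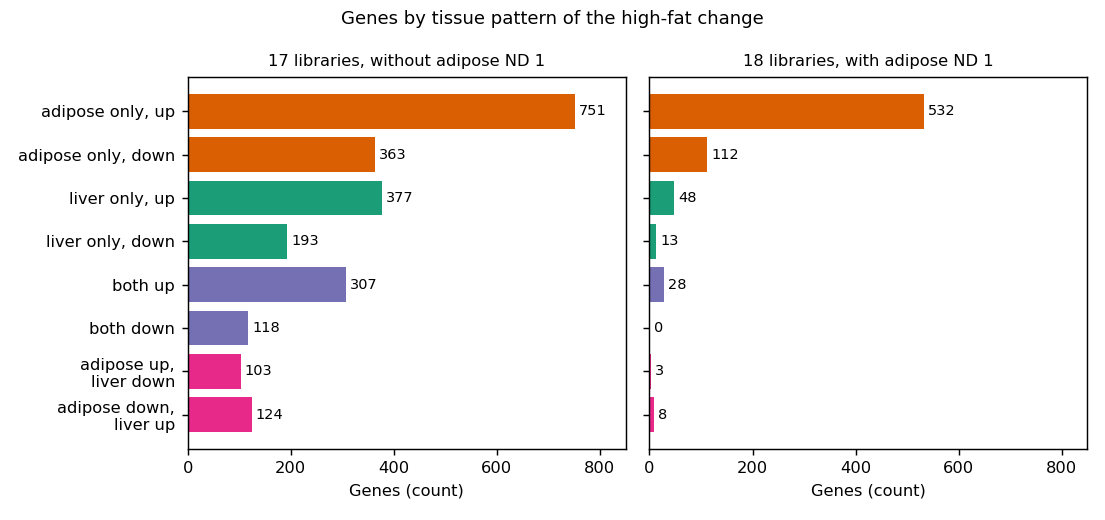
Number of genes (horizontal axis, count) by which tissue changed on the high-fat diet and in which direction, from 17 libraries without adipose ND 1 (left) and from all 18 (right). The largest group on both sides rose in adipose tissue only, with 751 and 532 genes, while the opposite-direction groups held 103 and 124 genes without ND 1 and 3 and 8 with it.

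The number of genes with a call in both tissues was 652, which is 24.7% of the adipose calls and 29.7% of the liver calls. Of these, 65.2% had the same sign, and among all genes tested 54.9% did. The adipose and liver changes were weakly related over the 9957 genes (Pearson 0.14, Spearman 0.14); the genes share libraries and are not independent replicates, so no p is given. With adipose ND 1 kept, 42.6% of all genes had the same sign.

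**Figure D2:**
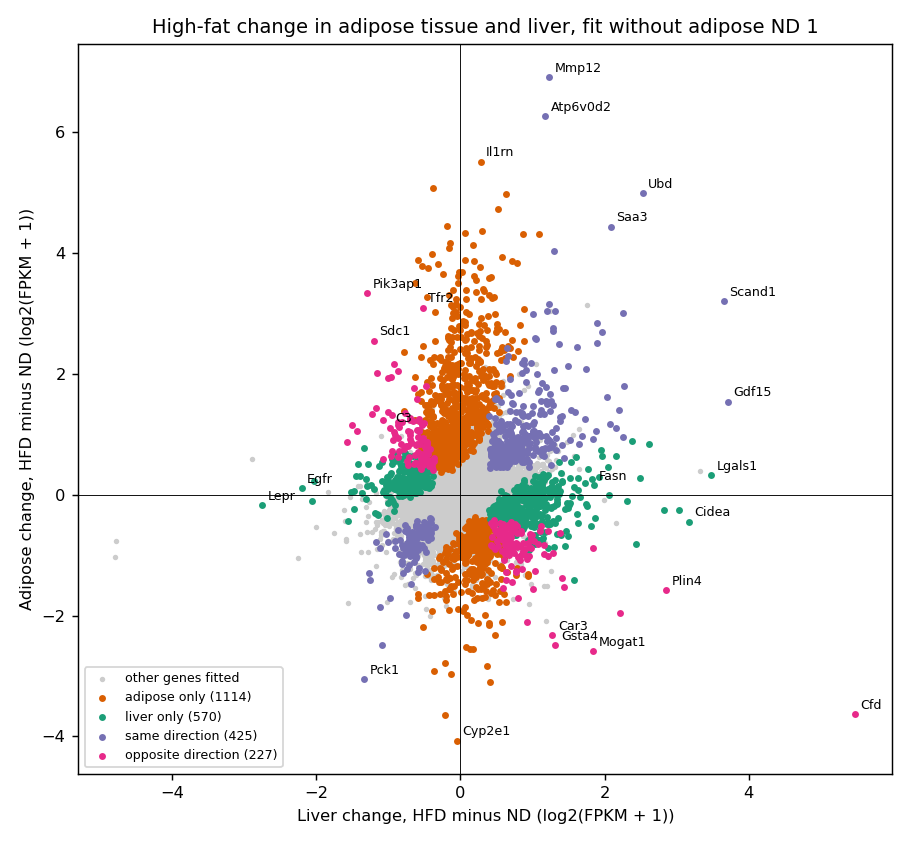
Change on the high-fat diet in liver (horizontal axis) and in adipose tissue (vertical axis), both as HFD minus ND in log2(FPKM + 1), 1 point per gene, coloured by the group it was sorted into. Genes in the upper left and lower right moved in opposite directions; Cfd, at -3.63 in adipose tissue and 5.48 in liver, lies farthest out.

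Genes that fell in adipose tissue and rose in liver were led by fat-cell products and by glutathione transferases. Cfd encodes adipsin, the complement factor D that fat cells secrete. Cfd had 337.5, 349 and 251 FPKM in the adipose HFD libraries, against 4074 and 3626 FPKM in ND 2 and ND 3 and 3048 FPKM in ND 1. In liver it had 192.5, 161.5 and 54.7 FPKM on HFD, against 1.78, 3.11 and 0.72 FPKM on ND. The diets did not overlap in either tissue, which was so for 49.9% of all genes in adipose tissue and 44.7% in liver. The adipose change was -3.63 ± 0.45 (SE; 3 HFD and 2 ND libraries here and below) and the liver change 5.48 ± 0.41 (3 and 3 libraries), and the difference of -9.11 ± 0.61 log2 units (adjusted p = 6.28e-07) also passed with all 18 libraries (adjusted p = 2.21e-06).

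Other fat-cell genes differed widely in their liver levels. Adipoq, which encodes the fat-cell hormone adiponectin, had 1027, 1037 and 908 FPKM in adipose HFD libraries, against 2781 and 1826 FPKM in adipose ND 2 and ND 3, and in liver 1.40, 0 and 0.17 FPKM on HFD, against 0 FPKM in all 3 ND libraries. Lep, the leptin gene, was higher on HFD in adipose tissue. It had 899, 1196 and 1186 FPKM there on HFD, against 323 and 317 FPKM in ND 2 and ND 3. In liver Lep had 0.72, 0 and 0 FPKM on HFD and 0 FPKM in the ND libraries. For both genes the liver diets overlapped at 0, and neither gene passed the filter on levels. The 10 fat-cell markers summed to 151 to 222 FPKM in liver HFD libraries, against 44.0 to 76.7 FPKM in liver ND libraries, and most of that sum came from Fabp4, Plin4 and Cidec. Cidec had 71.8, 76.7 and 115 FPKM in liver HFD libraries, against 55.0, 28.8 and 30.2 FPKM in liver ND libraries. Among the liver HFD libraries, HFD 1 had the most Cfd, Adipoq and Lep, and also the most Plin1 (0.40 FPKM) and Retn (0.48 FPKM), while HFD 3 had the largest sum. The part of fat-cell RNA in the liver values was not tested.

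Plin4, which encodes a protein of the lipid droplet coat, had 346, 427 and 375 FPKM in adipose HFD libraries, against 862 and 1511 FPKM in ND 2 and ND 3. In liver it had 31.5, 33.8 and 59.0 FPKM on HFD, against 4.36, 7.42 and 2.96 FPKM on ND. Its changes of -1.58 ± 0.41 in adipose tissue and 2.86 ± 0.37 in liver gave a difference of -4.44 ± 0.55 (adjusted p = 7.62e-05). Mogat1, a monoacylglycerol acyltransferase that makes diglyceride for storage, had a difference of the same size, -4.44 ± 0.66 (adjusted p = 0.000313), from -2.59 in adipose tissue and 1.85 in liver. Car3, the cytosolic carbonic anhydrase that is among the most abundant fat-cell messages, had 3013, 2836 and 2347 FPKM in adipose HFD libraries, against 17760 and 10420 FPKM in ND 2 and ND 3. Its liver levels were 3005, 2333 and 2291 FPKM on HFD, against 669, 1620 and 1040 FPKM on ND, so that the tissues lay at about one level on HFD. The place of these 3 genes in the opposite-direction group depended on the set-aside library. With adipose ND 1, which held 62.8 FPKM of Plin4, 3.95 FPKM of Mogat1 and 252 FPKM of Car3, the differences of Plin4 (-3.05, adjusted p = 0.112) and Car3 (-1.68, adjusted p = 0.441) no longer passed, while that of Mogat1 did (-3.50, adjusted p = 0.0321).

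Over the list of fat-cell genes the differences ran toward liver, but few members passed in both tissues. Of 23 listed, 15 passed the filter on levels, which left out Lep, higher on HFD in adipose tissue. Of these 15, 9 fell in adipose tissue and none rose, and 9 rose in liver and 1 fell. The difference passed for 13, all toward liver. By group, 3 moved in opposite directions, 4 in adipose tissue only, 5 in liver only and 1, Pck1, fell in both. The medians were -0.99 in adipose tissue, 1.21 in liver and -2.26 for the difference, beside 0.02, -0.02 and 0.05 over all genes. Besides Cfd, Plin4 and Car3, the list held Fabp4, a fatty acid carrier, which had an adipose change of -0.38 ± 0.26 that did not pass (adjusted p = 0.307) and rose by 1.87 ± 0.24 in liver (adjusted p = 0.000134). Adrb3, the beta-3 adrenergic receptor, fell by 2.33 ± 0.46 in adipose tissue (adjusted p = 0.00155). With adipose ND 1 kept, 2 of the 15 fell in adipose tissue, 3 rose in liver and 3 differed, Cfd alone moved in opposite directions, and the differences of Fabp4 (-1.42, adjusted p = 0.206) and Adrb3 (-1.46, adjusted p = 0.389) did not pass. The count that differed stayed at 12 or 13 when any 1 of the 17 libraries was left out.

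Glutathione transferases conjugate glutathione to reactive lipid products and foreign compounds. Gsta4, whose enzyme is known for clearing the lipid peroxidation product hydroxynonenal, had 3.64, 2.42 and 3.54 FPKM in adipose HFD libraries, against 22.4 FPKM in each of ND 2 and ND 3 and 41.2 FPKM in ND 1. In liver it had 42.3, 49.1 and 47.2 FPKM on HFD, against 16.6, 20.2 and 17.1 FPKM on ND. The diets did not overlap in either tissue, with or without ND 1. The changes were -2.49 ± 0.25 and 1.32 ± 0.23, and the difference was -3.81 ± 0.34 (adjusted p = 1.3e-05; -4.09 with all 18 libraries). Gstt1 had a difference of -2.96 ± 0.27 (adjusted p = 1.3e-05), from -1.53 in adipose tissue and 1.44 in liver. Gstt3, named after its values were seen, had 8.94, 8.31 and 8.08 FPKM in adipose HFD libraries, against 17.7 and 18.4 FPKM in ND 2 and ND 3; its liver values were 48.5, 48.8 and 43.6 FPKM on HFD, against 15.7, 31.2 and 15.3 FPKM on ND. Gsta3 had a difference of -3.02 ± 0.35 (adjusted p = 3.55e-05). Gsta3, Gsta4, Gstt1 and Gstt3 have close paralogs, so fragments could be shared among them.

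S100a1 encodes a calcium-binding protein, and Orm3 an orosomucoid, a plasma carrier protein. S100a1 had 78.4, 60.8 and 75.2 FPKM in adipose HFD libraries, against 166.6 and 116.5 FPKM in ND 2 and ND 3, and in liver 183.5, 278.5 and 206 FPKM on HFD, against 89.4, 107 and 75.0 FPKM on ND. Its difference was -2.24 ± 0.28 (adjusted p = 7.03e-05). Orm3 had a difference of -4.18 ± 0.44 (adjusted p = 2.87e-05), from -1.96 in adipose tissue and 2.22 in liver, at levels below 10 FPKM in every HFD and ND library and with near-identical copies in its family. Of the 227 opposite-direction genes, 34 kept that group whichever library was left out. When the 18-library analysis and a correction for transcript length and GC content were required as well, 5 kept it: Cfd, Gsta4, Gstt3, Orm3 and S100a1, all lower in adipose tissue and higher in liver on HFD.

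Hormones and enzymes of fuel use were also among those that fell in adipose tissue and rose in liver. Fgf21, a fasting and stress hormone made mainly by liver, had 15.2, 22.0 and 21.9 FPKM in liver HFD libraries, against 13.0, 8.98 and 9.83 FPKM in liver ND libraries; its difference was -1.68 ± 0.28 (adjusted p = 0.0006). Trib3, a pseudokinase of the amino acid stress response, had a difference of -1.37 ± 0.20 (adjusted p = 0.000216). G0s2, an inhibitor of the fat lipase ATGL, differed by -1.72 ± 0.36 (adjusted p = 0.00305), and Tkt, the transketolase of the pentose phosphate route, by -1.64 ± 0.22 (adjusted p = 0.000109). Eci1, which handles unsaturated fatty acids in oxidation, and Bckdha, a subunit of the branched-chain ketoacid dehydrogenase, differed by -1.32 ± 0.20 and -1.29 ± 0.20 (adjusted p = 0.00024 and 0.000284). Of these 6, the difference of Bckdha (-1.26, adjusted p = 0.00537) and of Fgf21 (-1.47, adjusted p = 0.0142) passed with all 18 libraries. Hba-a2, a hemoglobin chain and so a marker of blood in the tissue, also had opposite changes, -0.88 in adipose tissue and 1.84 in liver, and the part of blood in these results was not tested.

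Genes that rose in adipose tissue and fell in liver included cell-surface, complement and matrix genes. Sdc1 encodes syndecan 1, a heparan sulfate proteoglycan that in hepatocytes takes up remnant lipoproteins. Sdc1 had 63.5, 46.0 and 62.7 FPKM in adipose HFD libraries, against 8.28 and 9.51 FPKM in ND 2 and ND 3 and 11.4 FPKM in ND 1, and in liver 44.4, 34.8 and 41.4 FPKM on HFD, against 99.6, 90.9 and 89.9 FPKM on ND. The diets did not overlap in either tissue. The changes were 2.55 ± 0.31 and -1.20 ± 0.28, with a difference of 3.75 ± 0.42 (adjusted p = 3.2e-05; 3.64 with all 18 libraries). Tfr2, a sensor of transferrin iron known from liver, rose by 3.09 ± 0.16 in adipose tissue and fell by 0.52 ± 0.14 in liver (difference 3.61 ± 0.22, adjusted p = 9.61e-08). Pik3ap1, an adaptor of PI3-kinase in B cells and macrophages, differed by 4.62 ± 0.62 (adjusted p = 0.000147). In the 18-library analysis the differences of these 3 genes passed, but their liver changes did not.

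Fabp5 is the fatty acid carrier of macrophages and skin. It had 639, 530 and 538.5 FPKM in adipose HFD libraries, against 147 and 107 FPKM in ND 2 and ND 3, and in liver 14.7, 14.3 and 19.4 FPKM on HFD, against 21.6, 33.0 and 41.9 FPKM on ND. C3, the central complement component, rose to 445, 467.5 and 442 FPKM in adipose HFD libraries, against 187 and 234 FPKM in ND 2 and ND 3, and fell to 844.5, 761 and 830.0 FPKM in liver HFD libraries, against 1792, 1357 and 1678 FPKM in liver ND libraries. Its changes were 1.11 ± 0.18 and -0.98 ± 0.16, and the difference was 2.08 ± 0.24 (adjusted p = 4.47e-05). In each tissue the diets lay apart for both genes.

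Fn1, fibronectin, differed by 2.02 ± 0.26 (adjusted p = 9.1e-05) and Mmp14, a membrane-bound matrix protease, by 1.94 ± 0.27 (adjusted p = 0.000153). Cpt1a, which admits fatty acids to mitochondria, rose by 0.65 ± 0.23 in adipose tissue and fell by 0.96 ± 0.21 in liver (difference 1.61 ± 0.31, adjusted p = 0.00179). Akt1, a kinase downstream of the insulin receptor, differed by 1.43 ± 0.22 (adjusted p = 0.000274), and Elovl3, a fatty acid elongase, by 2.65 ± 0.49 (adjusted p = 0.00129). Elovl3 stood at no more than 1.75 FPKM in adipose HFD and ND libraries, and at 118, 43.0 and 42.8 FPKM in liver HFD libraries, against 208, 179 and 137 FPKM in liver ND libraries. Stab2, a scavenger receptor, and Sel1l3 differed by 2.61 ± 0.58 and 2.94 ± 0.50. In repeats with other settings their differences and that of Cpt1a kept passing, but the change in 1 tissue or both often did not: Cpt1a left the opposite-direction group in 22 repeats, Stab2 in 18 and Sel1l3 in 17.

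**Figure D3:**
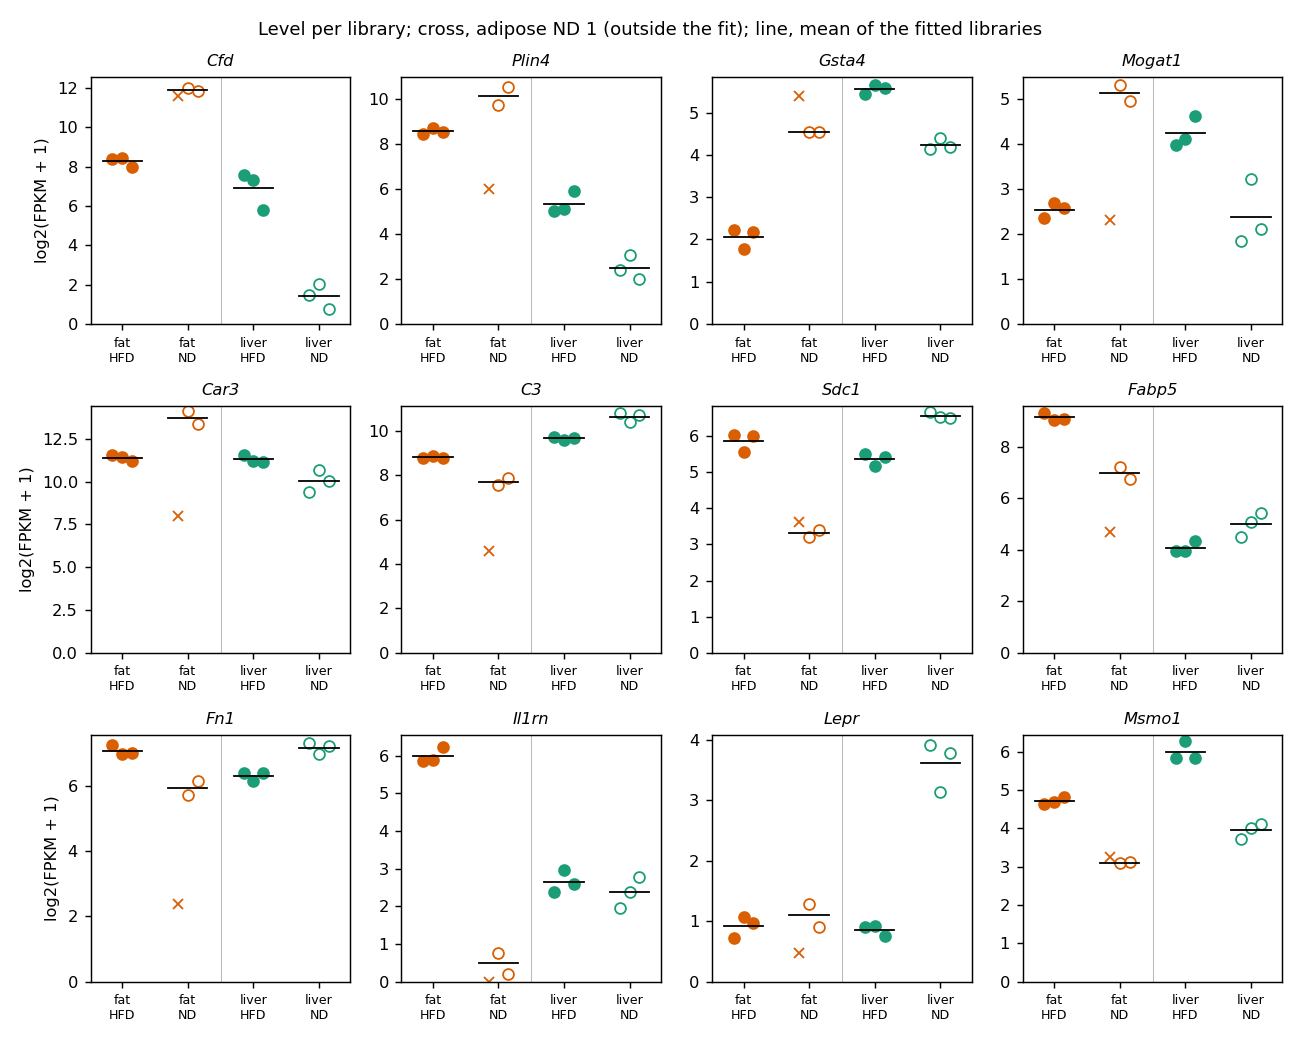
FPKM of 12 genes in every HFD and ND library (log vertical axis), with adipose HFD, adipose ND, liver HFD and liver ND from left to right and a cross for adipose ND 1, which was not used in the 17-library analysis. Cfd lies lower on HFD than on ND in adipose tissue and higher on HFD than on ND in liver, and Sdc1 and C3 show the reverse.

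Most listed genes of macrophages and of lysosomes rose in adipose tissue, and few of them rose in liver. Of 26 listed macrophage genes 19 passed the filter; 16 rose in adipose tissue and none fell, 1 rose and 1 fell in liver, and 15 had the more positive change in adipose tissue. The list medians were 2.44 in adipose tissue, 0.27 in liver and 2.41 for the difference. The summed level of all 26 was 8616 to 11271 FPKM in adipose HFD libraries, against 5177 and 3680 FPKM in ND 2 and ND 3, and 190 to 316 FPKM in liver HFD libraries, against 164 to 215 FPKM in liver ND libraries. The counts stayed at 13 to 16 risers in adipose tissue, and 12 to 15 differences, when any 1 library was left out, and were 16 and 14 with all 18 libraries. Adipose ND 1 itself held 367 FPKM of the 26.

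Cd68, a lysosomal membrane protein of macrophages, had 532, 398 and 532 FPKM in adipose HFD libraries, against 27.0 and 19.9 FPKM in ND 2 and ND 3, and rose by 4.32 ± 0.39. In liver it had 4.81, 12.7 and 9.46 FPKM on HFD, against 3.00, 4.60 and 5.07 FPKM on ND, and the change of 0.87 ± 0.35 did not pass (adjusted p = 0.0804). Adgre1, which encodes the macrophage antigen F4/80, rose by 3.78 ± 0.31 in adipose tissue and had a liver change of -0.54 ± 0.28 (adjusted p = 0.172); the difference was 4.31 ± 0.41 (adjusted p = 1.33e-05). Mmp12, the macrophage elastase, rose in both tissues, by 6.91 ± 0.40 in adipose tissue and 1.23 ± 0.36 in liver, with a difference of 5.68 ± 0.54 (adjusted p = 1.33e-05). Il1rn, the interleukin 1 receptor antagonist, had the largest adipose-only rise under the naming rule. It had 56.9, 58.2 and 74.3 FPKM in adipose HFD libraries, against 0.70 and 0.15 FPKM in ND 2 and ND 3, and 4.18, 6.85 and 5.05 FPKM in liver HFD libraries, against 2.86, 4.23 and 5.82 FPKM in liver ND libraries. The adipose libraries of the diets lay far apart and the liver libraries overlapped. Il1rn was below 1 FPKM in ND 2 and ND 3, so in adipose tissue it passed the filter only through the other diets.

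Other large adipose-only rises were found for F7, coagulation factor VII, at 5.07 ± 0.38, and for Atf3, a stress-induced transcription factor, at 4.73 ± 0.39. Cd300c2, an immune receptor, rose by 4.97 ± 0.36 and Slc15a3, a peptide and histidine transporter of lysosomes, by 4.33 ± 0.31. Hk3, a hexokinase of white blood cells, rose by 4.16 ± 0.35. Their liver changes lay between -0.39 and 0.63, and none passed.

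Lysosomes degrade lipids, proteins and sugars in macrophages and other cells. Of 31 listed genes 30 passed the filter, 29 rose in adipose tissue and none fell, 6 rose and 1 fell in liver, and the difference passed for 22, all toward adipose tissue. The medians were 1.67, 0.25 and 1.25. Ctss, the protease cathepsin S, had 902, 719 and 913 FPKM in adipose HFD libraries, against 45.9 and 34.3 FPKM in ND 2 and ND 3, and 12.9, 18.1 and 23.2 FPKM in liver HFD libraries, against 12.2, 13.2 and 17.5 FPKM in liver ND libraries. Atp6v0d2, a proton pump subunit of macrophages and osteoclasts, rose by 6.26 ± 0.39 in adipose tissue and by 1.18 ± 0.35 in liver. Lipa, the lysosomal acid lipase, rose by 3.51 ± 0.42 in adipose tissue (adjusted p = 1.76e-05), and its liver change of -0.63 ± 0.37 did not pass. Gla, the alpha-galactosidase, rose by 3.02 ± 0.28 in adipose tissue. In the 18-library analysis 27 of the 30 rose in adipose tissue and 16 differed. How much of the lysosomal change came with the macrophage genes was not tested.

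Of 10 cell-cycle genes that passed the filter, out of 21 listed, 9 rose in adipose tissue and 2 in liver, and 6 differed (medians 1.54, 0.21 and 1.10); with all 18 libraries 9 rose in adipose tissue, none in liver, and 4 differed. Tk1, thymidine kinase, had 16.0, 13.0 and 14.9 FPKM in adipose HFD libraries, against 1.91 and 3.13 FPKM in ND 2 and ND 3, while its liver libraries overlapped. All 6 MHC class II genes that passed the filter rose in adipose tissue and none in liver (medians 1.20, 0.24 and 0.98), but the difference passed for H2-DMb1 alone, so the other 5 are not shown to differ between the tissues, and fragments of these related genes could be shared. When the libraries with testis RNA (adipose ND 1, ND 3 and HFD 1) were left out, 1 of the 6 rose. Of 20 matrix genes that passed the filter, 16 rose and 1 fell in adipose tissue, and 8 rose and 2 fell in liver. The difference passed for 7 toward adipose tissue and 1 toward liver. Among all genes tested 16.4% rose in adipose tissue and 13.4% in liver. In the 18-library analysis 15 matrix genes rose in adipose tissue, none changed in liver, and 3 differed. The collagen gene Col3a1 rose in both tissues, by 2.09 ± 0.32 in adipose tissue and 1.74 ± 0.29 in liver, and the difference did not pass (adjusted p = 0.602). The complement genes C1qb and C1qc, made by macrophages, rose in adipose tissue only, with differences of 2.21 ± 0.42 and 1.87 ± 0.37.

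**Figure D4:**
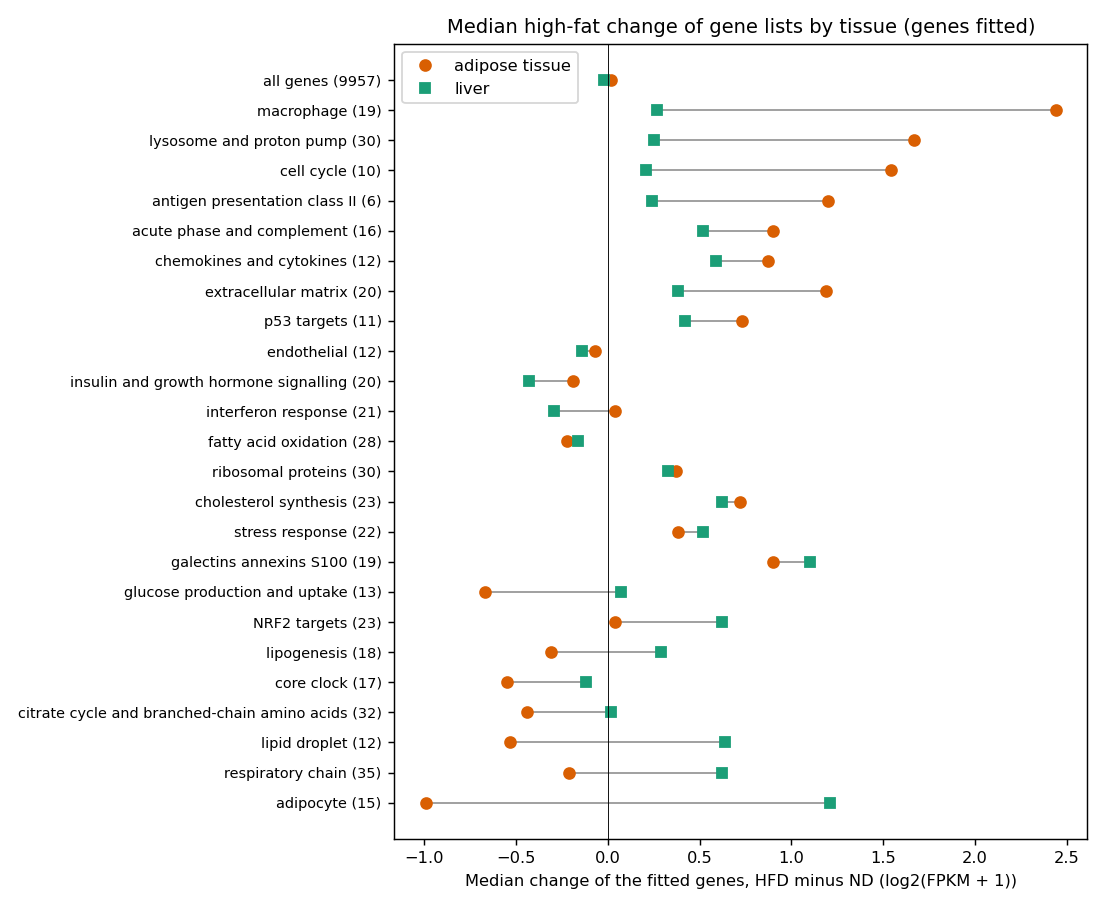
Median change of each gene list on the high-fat diet, HFD minus ND in log2(FPKM + 1), with circles for adipose tissue and squares for liver. The macrophage list lies at 2.44 in adipose tissue and 0.27 in liver, the fat-cell list at -0.99 and 1.21, and the cholesterol synthesis list at 0.72 and 0.62.

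Genes that fell in adipose tissue only included a blood pressure hormone precursor and metabolic enzymes. Agt, angiotensinogen, had 15.4, 14.8 and 8.31 FPKM in adipose HFD libraries, against 106 and 121 FPKM in ND 2 and ND 3 and 100.6 FPKM in ND 1, and in liver 306, 373 and 333 FPKM on HFD, against 224.5, 318 and 229 FPKM on ND. Its adipose change was -3.09 ± 0.33 and the difference -3.50 ± 0.44 (adjusted p = 7.18e-05; -3.44 with all 18 libraries). Cyp2e1, a cytochrome P450 that oxidizes ethanol and ketone bodies, fell by 4.07 ± 0.37 in adipose tissue, with a liver change of -0.05 ± 0.33; the difference was -4.02 (adjusted p = 7.03e-05), and -2.71 (adjusted p = 0.129) with all 18 libraries.

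Most of the named falls were lost in that way. Acsm3, a medium-chain acyl-CoA synthetase, fell by 3.65 ± 0.37, Nrg4, a fat-cell growth factor, by 2.52 ± 0.26, and Ces1d, a carboxylesterase, by 2.55 ± 0.36, and in none of the 3 did the adipose change pass with adipose ND 1 kept. Acaca, the acetyl-CoA carboxylase of fatty acid synthesis, fell by 1.63 ± 0.23 in adipose tissue, and its difference of -1.53 ± 0.31 was -0.47 (adjusted p = 0.713) with all 18 libraries. Ghr, the growth hormone receptor, had 276, 299 and 291 FPKM in adipose HFD libraries, against 618 and 563 FPKM in ND 2 and ND 3 and 18.2 FPKM in ND 1. Its difference of -1.04 ± 0.24 (adjusted p = 0.00629) turned to 0.61 (adjusted p = 0.751) with all 18 libraries. The count of genes that fell in adipose tissue only was 363 without ND 1 and 112 (1.12%) with it.

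Branched-chain amino acids are broken down in fat-cell mitochondria. Of the 32 genes of this route and the citrate cycle, all of which passed the filter, 13 fell in adipose tissue and none rose. In liver 6 of them rose and 1 fell, and 14 differed toward liver. Among all genes tested 10.2% fell in adipose tissue, 13.4% rose in liver and 9.69% differed toward liver. Aldh6a1, of valine breakdown, fell by 1.56 ± 0.28 in adipose tissue (adjusted p = 0.000711), and Ivd, of leucine breakdown, by 1.41 ± 0.16. Ivd had 48.0, 58.0 and 60.1 FPKM in adipose HFD libraries, against 152 and 144 FPKM in ND 2 and ND 3, while its liver change of -0.19 ± 0.14 did not pass. The list medians were -0.44, 0.02 and -0.63. When ND 1 was kept, 1 of the 32 fell and 1 differed, and the median difference was 0.05. With totals set equal between libraries the median liver change was -0.19 and 5 differed.

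In liver only, the largest rise under the naming rule was that of Lgals1, which encodes galectin 1, a sugar-binding protein. Lgals1 had 972, 834 and 844.5 FPKM in adipose HFD libraries, against 843 and 589 FPKM in ND 2 and ND 3, and in liver 84.7, 143 and 133 FPKM on HFD, against 5.60, 20.6 and 7.31 FPKM on ND. The adipose libraries of the diets overlapped and the liver libraries lay apart. The adipose change was 0.32 ± 0.37, the liver change 3.48 ± 0.33 (adjusted p = 1.39e-05) and the difference -3.16 ± 0.49 (adjusted p = 0.000357; -3.00 with all 18 libraries). S100a11, a calcium-binding partner of annexins, had an adipose change of 0.27 ± 0.37 and rose by 2.48 ± 0.33 in liver.

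Cidea and Cidec encode proteins that fuse small lipid droplets into larger ones. Cidea had 2.55, 0.88 and 3.81 FPKM in adipose HFD libraries, against 2.92 and 3.82 FPKM in ND 2 and ND 3 and 13.6 FPKM in ND 1; in liver it had 15.4, 7.66 and 6.11 FPKM on HFD, against 0.26, 0.11 and 0 FPKM on ND, and rose by 3.17 ± 0.47. The difference was -3.62 ± 0.71 (adjusted p = 0.00231). No liver ND library reached 1 FPKM of Cidea, so in liver it passed the filter only through the other diets. Cidec rose by 1.22 ± 0.38 in liver (adjusted p = 0.0313), and the difference was -2.10 ± 0.57 (adjusted p = 0.0152; -0.76, adjusted p = 0.659, with all 18 libraries). Among 12 droplet genes that passed the filter, 3 rose and 5 fell in adipose tissue, and 6 rose and none fell in liver. The shares over all genes were 16.4% and 10.2% in adipose tissue, and 13.4% and 8.65% in liver. With all 18 libraries 3 droplet genes rose and none fell in adipose tissue, and 1 rose in liver. Plin2, the droplet coat protein of most cells other than fat cells, went the other way: it rose by 2.26 ± 0.38 in adipose tissue, with a liver change of -0.30 ± 0.34 that did not pass, at 620, 541 and 597 FPKM in liver HFD libraries, against 987, 535 and 705 FPKM in liver ND libraries.

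Several genes of fatty acid synthesis rose in liver only. Fasn, fatty acid synthase, had 393, 318.5 and 326 FPKM in adipose HFD libraries, against 333 and 287 FPKM in ND 2 and ND 3, and in liver 49.6, 72.4 and 98.5 FPKM on HFD, against 15.5, 21.2 and 20.3 FPKM on ND. Its adipose change was 0.15 ± 0.27 and its liver change 1.85 ± 0.24. Thrsp, a lipogenic protein abbreviated from thyroid hormone responsive, rose by 3.03 ± 0.38 in liver, and Aacs, which activates acetoacetate for lipid synthesis, by 2.32 ± 0.23. The regulators Pparg and Srebf1 had adipose changes of -0.46 ± 0.23 and -0.54 ± 0.26 that did not pass, and rose in liver by 1.21 ± 0.20 and 0.88 ± 0.24. Scd1, the stearoyl-CoA desaturase, passed in neither tissue (0.22 ± 0.47 in liver). Over the 18 lipogenic genes that passed the filter, 3 rose and 3 fell in adipose tissue and 5 rose and 1, Elovl6 (-0.66), fell in liver. Over all genes 16.4% rose and 10.2% fell in adipose tissue, and 13.4% rose and 8.65% fell in liver. With all 18 libraries 4 lipogenic genes rose and none fell in adipose tissue, and 1 rose and none fell in liver. The differences of Fasn, Thrsp, Pparg and Srebf1 did not pass with all 18 libraries, where they were -0.66, -2.41, -0.25 and -0.32 log2 units (adjusted p = 0.603, 0.0931, 0.885 and 0.818), nor did that of Aacs (-1.63, adjusted p = 0.138).

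Some conjugating enzymes also rose in liver only. Gstm1 had 263, 272 and 249.5 FPKM in adipose HFD libraries, against 263 and 262 FPKM in ND 2 and ND 3, and in liver 827, 1197 and 1222 FPKM on HFD, against 234, 302 and 237 FPKM on ND. The adipose change was -0.01 ± 0.21, the liver change 2.05 ± 0.19 and the difference -2.06 ± 0.28 (adjusted p = 0.00014; -2.16 with all 18 libraries). Nqo1, a quinone reductase, and Ugdh, which makes the sugar for glucuronidation, had adipose changes of -0.17 ± 0.27 and 0.11 ± 0.23, and rose in liver by 1.51 ± 0.24 and 1.27 ± 0.20. With all 18 libraries the difference of Nqo1 passed (-1.55, adjusted p = 0.0207) and that of Ugdh did not (-0.04, adjusted p = 0.98). Of 23 NRF2 target genes that passed the filter, 6 rose and 3 fell in adipose tissue, and 12 rose and 1 fell in liver. The difference passed for 4 toward adipose tissue and 10 toward liver. Among all genes tested 16.4% rose and 10.2% fell in adipose tissue, and 13.4% rose and 8.65% fell in liver. Nothing is read from the adipose counts beside these shares. In the 18-library analysis 6 NRF2 targets rose and 1 fell in adipose tissue, 5 rose in liver, and 1 and 4 differed. The list median was 0.04 in adipose tissue, with a sign that depended on the scaling (-0.15 after quantile scaling), and 0.62 in liver. Hmox1, heme oxygenase 1, another target, rose in both tissues, by 2.58 ± 0.28 in adipose tissue and 1.04 ± 0.25 in liver.

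Genes that fell in liver only included those of 2 receptors, Lepr and Egfr. Of 20 genes of insulin and growth hormone signalling that passed the filter, 4 changed in liver only and 5 in the same direction in both tissues. Lepr, the leptin receptor, had 0.66, 1.10 and 0.96 FPKM in adipose HFD libraries, against 1.43 and 0.88 FPKM in ND 2 and ND 3, and in liver 0.86, 0.89 and 0.69 FPKM on HFD, against 14.0, 7.82 and 12.7 FPKM on ND. The liver change was -2.75 ± 0.19 (adjusted p = 4.43e-07), and the difference was 2.58 ± 0.28 (adjusted p = 3.07e-05, and 2.78 with all 18 libraries). At these low adipose levels adding 1 to FPKM shrinks a change, so a fall of Lepr in adipose tissue could hardly pass. Egfr, the epidermal growth factor receptor, had an adipose change of 0.11 ± 0.39 and fell by 2.21 ± 0.35 in liver. Socs2, a feedback inhibitor of growth hormone signalling, had an adipose change of 0.22 ± 0.45 and fell by 2.03 ± 0.40 in liver. Ehhadh, an enzyme of peroxisomal fatty acid oxidation, fell by 2.06 ± 0.33 in liver, at 281.5, 220 and 263 FPKM on HFD, against 1612, 612 and 1197 FPKM on ND, and its adipose libraries overlapped. With all 18 libraries the differences of Egfr (3.14, adjusted p = 0.0257) and Socs2 (2.54, adjusted p = 0.0219) passed and that of Ehhadh did not (3.13, adjusted p = 0.0657).

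Among the lists, which differ in size, respiratory chain genes had the largest count of differences toward liver. Of 35 that passed the filter, 3 rose and 5 fell in adipose tissue, 21 rose in liver and none fell, and 23 differed, all toward liver (medians -0.21, 0.62 and -0.84). The fat-cell list had 13 such differences among 15 genes. Over all genes 9.69% differed toward liver and 13.4% rose in liver. Ndufb8, a subunit of complex I, fell by 0.63 ± 0.16 in adipose tissue and rose by 0.62 ± 0.14 in liver. Uqcrq, of complex III, had an adipose change of 0.27 ± 0.23 and rose by 1.52 ± 0.20 in liver (adjusted p = 0.000216; the difference was -2.46, adjusted p = 0.117, with all 18 libraries). With all 18 libraries none rose in liver at the threshold and 8 differed.

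These transcripts are short, and in liver the change on HFD was related to transcript length. Over the 9894 genes with a known length (99.4%), the Spearman correlation of the change with length was -0.10 in adipose tissue and -0.52 in liver, given as a description over genes that share libraries. The fifth of genes with the shortest transcripts, 1911 bases or less, had a median change of 0.09 in adipose tissue and 0.40 in liver. The fifth with the longest, 5171 bases or more, had medians of -0.08 in adipose tissue and -0.29 in liver. The median length was 1445 bases for the respiratory chain list and 3327 bases over all genes, and 1616 bases for genes that rose in liver only and 4715 bases for those that fell there only. After a correction for length and GC content, 9 respiratory chain genes rose and 1 fell in liver, and 15 differed. Lengths were taken from GENCODE, and whether the relation came from the RNA, the libraries or the tissue was not tested.

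**Figure D5:**
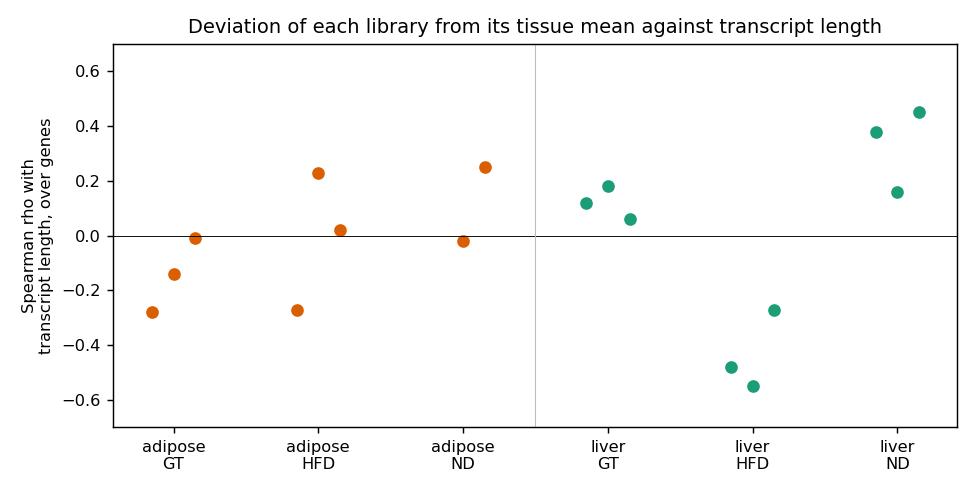
Spearman correlation, over genes, of each library's deviation from its tissue mean with transcript length (vertical axis), for adipose and liver libraries on GT, HFD and ND. The 3 liver HFD libraries lie at -0.48, -0.55 and -0.27 and the 3 liver ND libraries at 0.38, 0.16 and 0.45, while the adipose groups overlap.

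Of the lists, which differ in size, cholesterol synthesis had the largest count of members that rose in both tissues. Of 25 listed genes 23 passed the filter; 14 rose in adipose tissue and none fell, 16 rose and 1 fell in liver, and 9 rose in both. The medians of 0.72 in adipose tissue and 0.62 in liver compare with 0.02 and -0.02 over all genes, and the median difference was -0.09. The 9 were Mvk, Idi1, Fdps, Cyp51, Msmo1, Nsdhl, Ebp, Dhcr7 and Insig1. All encode enzymes of the route except Insig1, which retains the SREBP activator in the endoplasmic reticulum. With all 18 libraries 12 rose in adipose tissue and 5 in liver, and without liver HFD 2 the liver count was 11. In other lists, 8 of 19 galectin, annexin, S100 and related genes and 5 of 11 p53 targets rose in both tissues. Over all genes 3.08% did so (these shares without adipose ND 1).

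Msmo1, a sterol demethylating enzyme, had 23.9, 25.0 and 27.2 FPKM in adipose HFD libraries, against 7.54 and 7.70 FPKM in ND 2 and ND 3 and a similar level in ND 1, and in liver 55.9, 76.5 and 56.3 FPKM on HFD, against 12.1, 14.98 and 16.4 FPKM on ND. The diets lay apart in both tissues. The changes were 1.61 ± 0.20 and 2.04 ± 0.18, and the difference of -0.43 ± 0.26 did not pass (adjusted p = 0.264). Cyp51, another sterol demethylase, rose by 0.88 ± 0.21 and 1.05 ± 0.19, and Idi1, the isopentenyl diphosphate isomerase, by 0.72 ± 0.22 and 1.14 ± 0.20. Hmgcs1, which makes the HMG-CoA that enters the route, differed between tissues: it had an adipose change of -0.46 ± 0.23 that did not pass, rose by 1.64 ± 0.21 in liver, and the difference was -2.10 ± 0.31 (adjusted p = 0.000235; -1.01, adjusted p = 0.422, with all 18 libraries). Hsd17b7, another enzyme of the route, rose by 0.70 ± 0.21 in adipose tissue and fell by 0.59 ± 0.19 in liver, but left the opposite-direction group in 14 of the repeats with other settings.

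Since some of these genes rose in both tissues, the promoters of 3 that did so are shown with that of Hmgcs1, which rose in liver only. Windows run from 250 bases before to 50 bases after the gene start (RefSeq, GRCm38.p6), 5′ to 3′ on the gene's strand; capitals mark CACCCCAC and CCAAT on either strand, which read as GTGGGGTG and ATTGG on the opposite one.
Msmo1 (chr8:64733529-64733828, minus strand): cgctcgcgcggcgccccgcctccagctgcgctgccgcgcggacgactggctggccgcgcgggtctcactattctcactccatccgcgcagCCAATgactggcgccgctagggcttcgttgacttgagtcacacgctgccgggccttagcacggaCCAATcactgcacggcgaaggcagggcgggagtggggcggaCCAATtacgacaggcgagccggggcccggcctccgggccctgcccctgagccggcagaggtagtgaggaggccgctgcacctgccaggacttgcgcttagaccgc
Cyp51 (chr5:4104648-4104947, minus strand): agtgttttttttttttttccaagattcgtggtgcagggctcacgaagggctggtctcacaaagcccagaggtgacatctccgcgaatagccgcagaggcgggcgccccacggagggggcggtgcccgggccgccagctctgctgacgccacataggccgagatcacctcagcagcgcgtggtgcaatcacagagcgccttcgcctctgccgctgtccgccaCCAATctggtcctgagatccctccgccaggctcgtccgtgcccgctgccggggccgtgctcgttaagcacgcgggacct
Idi1 (chr13:8885356-8885655, plus strand): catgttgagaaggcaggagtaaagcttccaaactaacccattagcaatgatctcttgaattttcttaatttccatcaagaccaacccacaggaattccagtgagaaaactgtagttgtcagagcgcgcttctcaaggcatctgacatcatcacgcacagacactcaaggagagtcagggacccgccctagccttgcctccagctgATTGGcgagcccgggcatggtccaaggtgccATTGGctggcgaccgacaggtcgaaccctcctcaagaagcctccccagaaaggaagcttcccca
Hmgcs1 (chr13:119690101-119690400, plus strand): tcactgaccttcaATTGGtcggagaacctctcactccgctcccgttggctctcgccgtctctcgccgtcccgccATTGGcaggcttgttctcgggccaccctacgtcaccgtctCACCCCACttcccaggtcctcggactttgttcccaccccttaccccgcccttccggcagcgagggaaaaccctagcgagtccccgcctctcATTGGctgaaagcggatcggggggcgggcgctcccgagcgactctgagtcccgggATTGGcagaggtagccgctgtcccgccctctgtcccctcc

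CCAAT is the letters bound by the factor NF-Y, and CACCCCAC is the core of a sterol response element. CCAAT was found on either strand in 16 of the 17 cholesterol genes with a window in the table (94.1%), against 41.1% of 27025 genes with a window and 42.9% of those tested here. It was found in all 8 of the genes that rose in both tissues and had a window. CACCCCAC was found in 2 of the 17 (11.8%), against 3.3% of all genes, and in none of the 8. No window in the table had the 2 motifs sharing a base. A match is a description of letters, not of binding. Hmgcs1, whose adipose change did not pass, held 4 CCAAT matches and the CACCCCAC match. Whether the motifs bear on the changes was not tested.

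Among the other genes that rose in both tissues, Ubd, Saa3 and Ccl2 are known from inflammation. Ubd, which encodes a ubiquitin-like modifier induced by cytokines, had 265.5, 204 and 229 FPKM in adipose HFD libraries, against 8.25 and 4.80 FPKM in ND 2 and ND 3, and 5.23, 10.7 and 10.5 FPKM in liver HFD libraries, against 0.08, 1.21 and 0.83 FPKM in liver ND libraries. It rose by 4.99 ± 0.50 in adipose tissue and by 2.53 ± 0.44 in liver, so that the difference passed as well (2.46 ± 0.67, adjusted p = 0.016). Saa3, an acute phase protein whose gene has close relatives, rose by 4.43 ± 0.42 and 2.09 ± 0.38. Ccl2, the chemokine that draws monocytes, rose by 3.03 ± 0.26 and 1.21 ± 0.24.

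Gdf15, a stress hormone that acts on the hindbrain, was one of 6 genes that rose or fell in both tissues and did so more in liver. Gdf15 had 5.00, 2.97 and 4.43 FPKM in adipose HFD libraries, against 0.70 and 0.78 FPKM in ND 2 and ND 3, and in liver 37.9, 26.0 and 25.8 FPKM on HFD, against 1.09, 1.05 and 1.92 FPKM on ND. The changes were 1.54 ± 0.27 and 3.71 ± 0.24, with a difference of -2.17 ± 0.36 (adjusted p = 0.000593, and -2.17 with all 18 libraries). In adipose ND 2 and ND 3 Gdf15 was below 1 FPKM, so it passed the filter there only through the other diets. Larger changes in adipose tissue were found for 34 of the 40 genes with the same direction and a difference that passed.

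Ucp2, a mitochondrial carrier abundant in macrophages, rose by 2.45 ± 0.31 in adipose tissue and 1.61 ± 0.28 in liver. Of 11 p53 target genes that passed the filter, 9 rose in adipose tissue and 6 in liver and none fell in either (medians 0.73 and 0.42). The shares of all genes that rose were 16.4% in adipose tissue and 13.4% in liver. With all 18 libraries 6 of 12 p53 targets rose in adipose tissue and 1 in liver. Cdkn1a, the cell-cycle inhibitor p21, rose by 1.39 ± 0.32 and 1.11 ± 0.29, and Bax, a promoter of apoptosis, by 1.10 ± 0.32 and 1.32 ± 0.28. Of 19 galectin, annexin, S100 and related genes that passed the filter, 10 rose and 1 fell in adipose tissue and 13 rose in liver, and in the 18-library analysis 9 rose and 1 fell in adipose tissue and 6 rose in liver. Anxa2 rose by 1.11 ± 0.30 and 2.17 ± 0.27 and Cd63, a tetraspanin of late endosomes, by 1.36 ± 0.34 and 1.59 ± 0.31. For Ucp2, Cdkn1a, Bax, Anxa2 and Cd63 the difference between the tissues did not pass.

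Genes that fell in both tissues included a gluconeogenic enzyme and a mediator of insulin signalling. Pck1, the gluconeogenic enzyme that in fat makes glycerol for triglyceride, had 266, 246 and 227 FPKM in adipose HFD libraries, against 2130 and 1954 FPKM in ND 2 and ND 3 and 77.2 FPKM in ND 1, and in liver 482, 362 and 588 FPKM on HFD, against 1190, 917 and 1515 FPKM on ND. It fell by 3.05 ± 0.34 in adipose tissue and by 1.34 ± 0.31 in liver. Irs2, an insulin receptor substrate, fell by 1.30 ± 0.41 and 1.26 ± 0.36, and Klb, the co-receptor of FGF21, by 1.86 ± 0.24 and 1.11 ± 0.22. With all 18 libraries no gene fell in both tissues at the threshold, and the differences of these 3 genes were -0.14, 1.07 and 0.60.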

How the data were processed

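RNA-seq libraries of epididymal fat and liver were taken as deposited: the authors' FPKM per gene, with the unit per the file headers and no further scaling applied. Software named in the submitters' processing notes was Cufflinks 2.1.1, STAR 2.4.0 and CASAVA 1.8.2, with no role stated. As to the genome build, it was not given in the sources used here. Symbols came from GENCODE M21 (22671 of 23474 identifiers matched, 803 did not). No table column lay outside the samples.

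FPKM was transformed to log2(FPKM + 1) and fitted with limma 3.58.1 in R 4.3.3 (trend and robust options, 6 group means) on 17 libraries without adipose ND 1. Genes had at least 1 FPKM in 3 or more adipose and 3 or more liver libraries. Contrasts were the adipose change, the liver change and their difference, each with Benjamini-Hochberg adjustment over all genes at 0.05. FPKM are not counts, so no count model was used, and the limited number of libraries sets the precision. The procedure was run on simulated data with independent noise at the fitted spread. Simulated libraries of a group differed by that noise alone. The run therefore does not bear on admixed libraries or on the relation with transcript length. Tables and figures used Python 3.11.15, NumPy 2.4.6, pandas 2.3.3 and matplotlib 3.10.9.

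Genes were named as the largest differences (opposite direction) or changes (other groups) with nonoverlapping diets, no more than 10 in a direction. Up to 4 members of each list with the smallest p for the difference, members with opposite calls and a panel of metabolic genes were added. Predicted genes and genes listed at 0 in a library of a group that reaches 10 FPKM were passed over. Some other list members are given as examples and were chosen after their values were seen, and a few genes are not reported here. The groups of genes, the lists and the panel were chosen with earlier results of these data known, so list counts are descriptions.

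Alternatives were all 18 libraries, other pseudocounts, filters and scalings, library weights, replicate blocks, HFD and ND libraries alone, and leaving out libraries. Leaving out liver HFD 3 and GT 3, and the correction for transcript length and GC content, were chosen after seeing the data.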

Additional observations from a re-analysis of the deposited data

Results flagged for a closer look

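The adipose change on HFD differed from the liver change by a test of the difference itself in 2145 genes, and 227 of these moved in opposite directions. Among the named genes of the opposite-direction group, the adipose change exceeded the liver change by 4.62 log2 units for Pik3ap1, 3.75 for Sdc1, 3.61 for Tfr2, 3.17 for Taok3, 3.08 for Fabp5, 2.94 for Sel1l3, 2.91 for Sdc3, 2.91 for Dock8, 2.65 for Elovl3 and 2.61 for Stab2. It lay below the liver change, with differences of -9.11 for Cfd, -4.44 for Plin4, -4.44 for Mogat1, -4.18 for Orm3, -3.81 for Gsta4, -3.60 for Car3, -3.02 for Gsta3, -2.96 for Gstt1, -2.72 for Hba-a2 and -2.56 for Slc16a7. A library outside the comparisons, adipose ND 1, held 120186 FPKM over 24 testis markers, against at most 4374 FPKM in any other adipose library.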

How the results depend on the processing

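Counts of differing, adipose-only, liver-only, same-direction and opposite-direction genes were 2145, 1114, 570, 425 and 227, and they rested most on adipose ND 1. With all 18 libraries they were 857, 644, 61, 28 and 11, and the differences of Ghr (0.61) and Gbp4 (0.15) changed sign. Without a filter on levels 3221 genes differed and 2110 were adipose only, and a filter at 5 FPKM left 609 adipose only. Without the 3 adipose libraries that held testis RNA, 263 moved in the same direction. Leaving out 1 library at a time gave 1581 to 2803 differing genes, 809 to 1329 adipose only, 232 to 811 liver only, 188 to 629 in the same direction and 89 to 365 in opposite directions. Liver HFD 2, ND 1 and ND 3 decided most of the lower counts: without them the liver-only counts were 232, 296 and 305, the same-direction counts 188, 218 and 238, and the opposite-direction counts 89, 101 and 109. The opposite-direction count was also 147 without adipose HFD 2 and 133 without adipose HFD 3, and without liver GT 3 it was 365. The causes were not tested. Equal library totals moved the median over all genes to 0.10 in adipose tissue, -0.20 in liver and 0.31 for the difference, with 1607 differences toward adipose tissue and 493 toward liver, against 1180 and 965 as reported; in adipose tissue 1623 genes then rose and 570 fell, and in liver 717 rose and 1291 fell. After quantile scaling 1457 genes rose and 1469 fell in adipose tissue. Without adipose ND 2, 817 differences ran toward adipose tissue and 1083 toward liver. The length and GC correction left 2427 differing genes, of which 1546 were adipose only, 423 liver only, 320 in the same direction and 208 in opposite directions; 272 of the 570 liver-only and 117 of the 227 opposite-direction genes kept their group. Of 167 named genes, the difference passed for 138; 122 of these held whichever library was left out, and 77 held in every repeat.

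Whether replicate numbers pair the samples is not given by the labels. Between HFD and ND libraries of the same number, deviations from the group means correlated at 0.06 and -0.40 in adipose tissue. There ND 2 and ND 3 deviate equally and oppositely, so these values say little. In liver the values were 0.19, 0.45 and 0.12. Between adipose and liver libraries of the same diet and number they were 0.02 and 0.01 on ND, and -0.10, -0.25 and 0.045 on HFD. With the replicate number as a block, 1957 genes differed, with 1029, 518, 356 and 191 genes in the 4 groups. With diet and number blocked across tissues, 2076 differed. Neither block moved a count by over 1.5 times.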

Other observations

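Of 20 genes of insulin and growth hormone signalling that passed the filter, 3 rose and 6 fell in adipose tissue and 3 rose and 9 fell in liver, with medians of -0.19 and -0.43. In adipose tissue this turned with adipose ND 1 kept: 3 rose and 1 fell, with a median of 0.57, and in liver 1 rose and 2 fell. Without ND 1, 16.4% of all genes rose and 10.2% fell in adipose tissue, and 13.4% rose and 8.65% fell in liver. Insr, the insulin receptor, fell by 1.26 in adipose tissue and by 0.49 in liver, and Irs1 by 1.00 and 0.78. Igfbp7, an IGF-binding protein, rose by 0.82 and 1.28. Of 28 fatty acid oxidation genes 2 rose and 3 fell in adipose tissue, and 1 rose and 7 fell in liver, with medians of -0.22 and -0.16; with all 18 libraries 1 rose and none fell in adipose tissue and none changed in liver. Of 17 clock genes 1 rose and 5 fell in adipose tissue, where Nr1d1, the clock repressor REV-ERB alpha, fell by 1.10, and 3 rose and 2 fell in liver, where Ciart rose by 1.63; with all 18 libraries 1 rose in each tissue and none fell. The time of day of sampling was not analysed here.

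Of 21 interferon genes 2 rose and 3 fell in adipose tissue, and 3 rose and 1 fell in liver; with all 18 libraries 3 rose and none fell in adipose tissue and 1 rose in liver. Over all genes 26.5% passed in adipose tissue and 22.0% in liver, and nothing is read from the oxidation, clock and interferon counts beside these shares. Rsad2, the antiviral enzyme viperin, rose by 0.72 ± 0.25 in adipose tissue and fell by 0.86 ± 0.22 in liver, but left the opposite-direction group in 14 of the repeats with other settings. Of 12 chemokine and cytokine genes that passed the filter, 7 rose and 1 fell in adipose tissue and 4 rose and 1 fell in liver. With all 18 libraries 6 rose in adipose tissue, 1 rose in liver and none fell. Rises outnumbered falls over all genes as well, with 16.4% against 10.2% in adipose tissue and 13.4% against 8.65% in liver. Cxcl1, which attracts neutrophils, rose by 0.95 ± 0.26 in adipose tissue and by 2.26 ± 0.23 in liver (difference -1.31 ± 0.35, adjusted p = 0.0143), while Ccl9, a macrophage chemokine, rose in adipose tissue only, by 2.95 ± 0.28. None of the 12 endothelial genes passed in adipose tissue, and in liver Vwf rose by 0.91 and Pecam1, Kdr and Tek fell by 0.42, 0.84 and 0.44; the difference passed for none of the 12, and with all 18 libraries none changed in either tissue. B-cell markers summed to 277 to 299 FPKM in adipose HFD libraries, against 173 and 96.6 FPKM in adipose ND 2 and ND 3, and mesothelium markers to 9.80 to 14.8 FPKM, against 30.4 and 44.0 FPKM. Of the 6 B-cell markers 2 passed the filter, and Ighm, the IgM heavy chain, rose by 1.16 in adipose tissue and 0.92 in liver; the sums and the mesothelium list were not tested. Of 30 ribosomal protein genes 6 rose in adipose tissue and 9 rose and 2 fell in liver, and after the length and GC correction 5 fell and none rose in liver; with all 18 libraries none changed in either tissue.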
